A study of Mus musculus with 9 samples.

Results

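The genes examined encode the T cell receptor (TCR) complex and the proteins that act directly beneath it: the CD3 chains Cd3d, Cd3e, Cd3g and Cd247, the co-receptor Cd4, the kinase Zap70, the adaptors Lat and Lcp2, and Themis. They were chosen by gene symbol, with earlier results of these data known. Of the 9 named, 8 were measured, each by 1 probe set, among 22180 genes in all. Cd247 was not analysed here. Levels came from sorted mouse regulatory T (Treg) cells, in 4 arrays of the Mst1/Mst2-null genotype (Foxp3YFP-Cre with loxP-flanked Stk4 and Stk3, the genes of Mst1 and Mst2) and 5 arrays of the wild-type genotype (Foxp3YFP-Cre alone). Both groups were on the C57BL/6 strain and carried the same Cre and YFP at Foxp3, so that Cre acts in cells that express Foxp3. The CD45.2+, CD45.1-, CD4+ and YFP+ cells were taken from RAG1-/- recipients 2 months after transplantation of donor marrow mixed in equal parts with wild-type CD45.1 marrow. Surface CD4 was one of the sorting gates in both groups. The labels do not say whether arrays came from separate recipients, so each p-value reflects array-to-array spread, which may be technical.

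The TCR itself has no signalling tail of its own. It relies on the CD3 chains and the zeta chain (Cd247), whose cytoplasmic tails carry tyrosine motifs that are phosphorylated when the receptor binds peptide on an MHC molecule. CD4 binds MHC class II and brings a Src-family kinase to the complex, ZAP-70 docks on the phosphorylated chains and phosphorylates LAT, and LAT together with SLP-76 (the product of Lcp2) assembles the enzymes that open the calcium, Ras and NF-kB arms. Treg cells need TCR signals to develop and to maintain their suppressive programme, and Mst1 and Mst2 are Hippo pathway kinases.

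The promoter windows of the 3 CD3 genes, Lat and Themis are shown because in these 5 genes, and in none of the other measured ones, all null values lay on one side of all wild-type values, below them for the CD3 genes and above them for Lat and Themis. Each is a RefSeq window of 300 bases around the gene's start (GRCm38.p6), written 5′ to 3′ on the gene's strand, with each match to the ETS core (GGAA, or TTCC on the other strand) in capitals.
Cd3g, chr9:44980382-44980681 (- strand): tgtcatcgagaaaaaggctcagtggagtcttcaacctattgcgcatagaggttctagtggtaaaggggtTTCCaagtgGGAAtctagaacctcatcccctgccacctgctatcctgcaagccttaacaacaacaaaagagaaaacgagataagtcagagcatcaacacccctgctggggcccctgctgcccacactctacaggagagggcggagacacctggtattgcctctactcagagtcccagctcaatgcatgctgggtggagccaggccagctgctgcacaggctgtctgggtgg
Cd3d, chr9:44981536-44981835 (+ strand): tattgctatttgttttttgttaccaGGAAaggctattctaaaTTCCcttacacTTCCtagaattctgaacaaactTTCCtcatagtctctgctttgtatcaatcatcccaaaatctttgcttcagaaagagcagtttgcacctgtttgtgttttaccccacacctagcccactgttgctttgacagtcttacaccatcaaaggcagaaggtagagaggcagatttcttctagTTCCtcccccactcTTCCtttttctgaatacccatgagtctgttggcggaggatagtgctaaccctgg
Cd3e, chr9:45009562-45009861 (- strand): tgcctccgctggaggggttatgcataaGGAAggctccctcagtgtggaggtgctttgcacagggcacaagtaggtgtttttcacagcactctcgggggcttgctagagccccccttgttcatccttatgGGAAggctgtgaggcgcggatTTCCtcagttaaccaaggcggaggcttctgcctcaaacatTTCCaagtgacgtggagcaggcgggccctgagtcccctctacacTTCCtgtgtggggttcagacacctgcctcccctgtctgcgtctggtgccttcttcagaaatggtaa
Lat, chr7:126369519-126369818 (- strand): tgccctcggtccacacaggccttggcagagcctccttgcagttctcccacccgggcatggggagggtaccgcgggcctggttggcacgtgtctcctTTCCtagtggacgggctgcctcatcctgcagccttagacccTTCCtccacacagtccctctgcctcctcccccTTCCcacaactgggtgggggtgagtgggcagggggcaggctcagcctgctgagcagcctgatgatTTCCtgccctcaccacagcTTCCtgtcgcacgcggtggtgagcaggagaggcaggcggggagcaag
Themis, chr10:28668110-28668409 (+ strand): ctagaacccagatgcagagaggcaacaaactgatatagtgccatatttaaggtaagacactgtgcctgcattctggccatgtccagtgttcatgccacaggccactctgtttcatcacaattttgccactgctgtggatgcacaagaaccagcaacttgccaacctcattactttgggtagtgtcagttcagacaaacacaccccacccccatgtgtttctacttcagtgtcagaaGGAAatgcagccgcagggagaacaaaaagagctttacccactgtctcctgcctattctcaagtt
The windows of Cd3g, Cd3d and Cd3e held 2, 6 and 5 ETS cores, and that of Lat held 5. Themis has 2 overlapping windows, the printed one with 1 ETS core and another (chr10:28668145-28668444, + strand) with 2. At least 1 ETS core was found in 96% of 32817 promoter windows of the same length, with a median of 3, so its presence does not set these genes apart. A RUNX core (TGTGGT, or ACCACA on the other strand) was in the Lat window, once, and in none of the other windows of these genes; 16.8% of all windows held one. E boxes (CANNTG, the same letters on both strands), present in 72.3% of all windows, numbered 4 in Cd3g, 1 in Cd3d, 2 in Cd3e, 2 in Lat, 2 in the printed Themis window and 1 in its other window. A GC box (GGGCGG, or CCGCCC on the other strand) was in the Cd3g window only among these genes, and in 35.6% of all windows. In gene order Cd3g, Cd3d and Cd3e lie next to each other, between Ube4a and Mpzl2, 2 genes with other roles. Ube4a, a ubiquitin ligase gene, differed by -0.011 between null and wild type (log2), and Mpzl2, an adhesion gene, by 0.20; neither passed the test (limma adjusted p = 0.966 and 0.477). Mpzl2 was dim, with means of 3.03 in null arrays and 2.82 in wild-type arrays, below the median of all values (4.04).

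Values are log2 RMA values, in which array intensities have been background-corrected, quantile-normalised and summarised per probe set, and every difference is null minus wild type on that scale. Serial numbers in the sample titles put all wild-type samples ahead of all null samples, so that order and genotype cannot be told apart, and no batch was given. Array medians lay between 3.99 and 4.08, and precision is limited by there being 4 null and 5 wild-type arrays. Stk4 ranged from 7.50 to 7.83 in null arrays and from 7.84 to 8.09 in wild-type arrays, a difference of -0.27 that did not pass (limma adjusted p = 0.146); its probe set runs along the transcript, so it does not check the deletion. Null arrays were less alike: each correlated at 0.968 to 0.975 with the others of its group, against 0.984 to 0.986 in wild type, and null arrays correlated at 0.969 to 0.976 with the wild-type arrays. Foxp3, the defining Treg cell marker, lay between 10.59 and 10.79 in null arrays and between 10.66 and 10.77 in wild-type arrays. Of 6 Treg cell markers, Foxp3 among them, Lrrc32 and Ikzf2 passed as lower in null cells (differences -1.06 and -0.72). The other 4 did not pass.

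None of the 8 measured genes passed the test between null and wild-type Treg cells (limma over all genes, adjusted p at most 0.05 required), where 2.32% of all 22180 genes passed, 0.428% higher and 1.89% lower in null cells. In 5 genes the mean was lower in null cells (Cd3d, Cd3e, Cd3g, Cd4 and Zap70) and in 3 it was higher (Lat, Lcp2 and Themis). The differences were small, from -0.32 for Cd3g to 0.52 for Themis. At an unadjusted p under 0.05 stood 7 of the 8, against 14.9% of all genes and 30.5% of the 2604 genes whose mean over the 9 arrays was at least that of Themis, the dimmest of the 8. Groups did not overlap in 5 of the 8, against 6.16% of all genes and 15.9% of those 2604. Because the 8 were chosen with earlier results of these data known, these shares are description and not a test. The median difference of the 8 genes was -0.17, against 0.0023 over all genes and -0.057 over the 2604. As these are bulk samples, fewer cells of a type and less RNA per cell cannot be told apart.

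**Figure D1:**
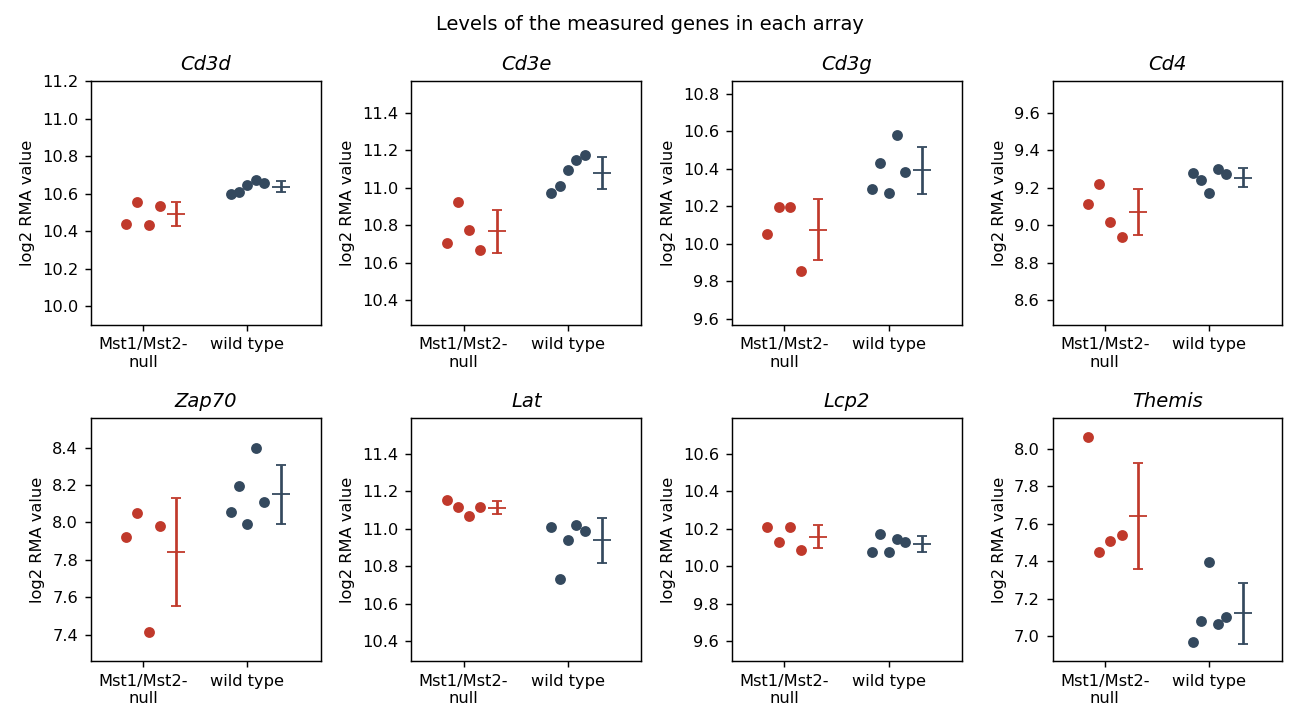
Log2 RMA value of each measured gene (vertical axis, the same span of units in each panel, not starting at 0) in each Mst1/Mst2-null array (red, left) and wild-type array (dark, right), with the mean and SD beside the points (n = 4 and 5). Null points of Cd3d, Cd3e and Cd3g all lie below the wild-type points, those of Lat and Themis all lie above them, and Lcp2 hardly spreads at all.

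The CD3 chains form the invariant signalling part of the receptor. Cd3e, which encodes the epsilon chain that pairs with both delta and gamma, had values of 10.71, 10.93, 10.78 and 10.67 in null arrays, against 10.97, 11.01, 11.09, 11.15 and 11.17 in wild-type arrays. Every null array lay below every wild-type array, and null array 2 came closest to the wild-type range. The difference was -0.31 ± 0.074 (SE), or a fold of 0.807 of null over wild type with a 95% interval from 0.72 to 0.903. It did not pass (limma adjusted p = 0.0619), and it was the smallest p among the 8 genes. The call depends on the processing. With only genes kept that reached the median of all values in at least 4 of the 9 arrays, the limma adjusted p was 0.0427. Without null array 2 it was 0.0303, but without null array 1 it was 0.142 and without wild-type array 4 it was 0.148. Of 19 alternatives, Cd3e did not pass in 13.

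Cd3g, the gamma chain gene, had values of 10.05, 10.20, 10.20 and 9.85 in null arrays, against 10.29, 10.43, 10.27, 10.58 and 10.38 in wild-type arrays. The groups did not overlap, and null array 4 stood lowest. The difference of -0.32 ± 0.093 (SE) did not pass (limma adjusted p = 0.124). Cd3d, the delta chain gene, had values of 10.44, 10.55, 10.43 and 10.54 in null arrays, against 10.60, 10.61, 10.65, 10.67 and 10.66 in wild-type arrays. Here too the groups did not overlap, and the 9 values spanned only 0.24 units. The difference of -0.15 ± 0.056 (SE), with a 95% interval from -0.27 to -0.024, did not pass (limma adjusted p = 0.234). Groups without overlap and with lower null values, as in these 3 genes, were found in 4.4% of all genes and in 12.4% of the 2604 genes of similar or higher level.

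Cd4, which encodes the MHC class II co-receptor, had values of 9.11, 9.22, 9.02 and 8.94 in null arrays, against 9.28, 9.24, 9.17, 9.30 and 9.28 in wild-type arrays. The groups overlapped, because null array 2 lay above wild-type array 3. The mean was 9.07 ± 0.12 (SD, n = 4) in null arrays and 9.25 ± 0.05 (SD, n = 5) in wild-type arrays, and the difference, -0.18 ± 0.069 (SE), missed the threshold (limma adjusted p = 0.232). Zap70, the kinase that docks on phosphorylated CD3 and zeta chains, had values of 7.92, 8.05, 7.42 and 7.98 in null arrays, against 8.06, 8.20, 7.99, 8.40 and 8.11 in wild-type arrays. Null array 3 stood below the rest and the groups overlapped. The difference of -0.31 ± 0.13 (SE) did not pass (limma adjusted p = 0.305), and without null array 3 it was -0.17.

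For the adaptors and Themis the means went the other way. Lat, the membrane adaptor that ZAP-70 phosphorylates, had values of 11.15, 11.11, 11.07 and 11.11 in null arrays, against 11.01, 10.73, 10.94, 11.02 and 10.99 in wild-type arrays. No wild-type array reached a null array, and wild-type array 2 stood lowest. The difference was 0.17 ± 0.071 (SE), with a 95% interval from 0.017 to 0.33, and did not pass (limma adjusted p = 0.273). Lcp2, the gene of the adaptor SLP-76, had values of 10.21, 10.13, 10.21 and 10.09 in null arrays, against 10.07, 10.17, 10.08, 10.14 and 10.13 in wild-type arrays. Its 9 values spanned only 0.135 units, the narrowest span of the 8 genes, and the groups overlapped. The interval of its difference, from -0.087 to 0.16 (limma adjusted p = 0.819), corresponds to a fold between 0.941 and 1.12.

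Themis encodes a protein that binds GRB2 and tunes TCR signalling, and is best known for its need in thymocyte selection. Its values were 8.06, 7.45, 7.51 and 7.54 in null arrays, against 6.97, 7.08, 7.40, 7.06 and 7.10 in wild-type arrays. All null arrays lay above all wild-type arrays, null array 1 by the most, while null array 2 exceeded wild-type array 3 by little. The mean was 7.64 ± 0.28 (SD, n = 4) in null arrays and 7.12 ± 0.16 (SD, n = 5) in wild-type arrays. This difference, 0.52 ± 0.13 (SE), was the widest among the 8 genes, a fold of 1.43 with a 95% interval from 1.17 to 1.76, and did not pass (limma adjusted p = 0.0799). Of the 2604 genes of similar or higher level, 4.69% had a difference at least as large in either direction. Without null array 1 the difference was 0.38 (limma adjusted p = 0.109), and with dim genes removed the adjusted p was 0.0487. Groups without overlap and with higher null values, as for Lat and Themis, were found in 1.76% of all genes and in 3.53% of the 2604.

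**Figure D2:**
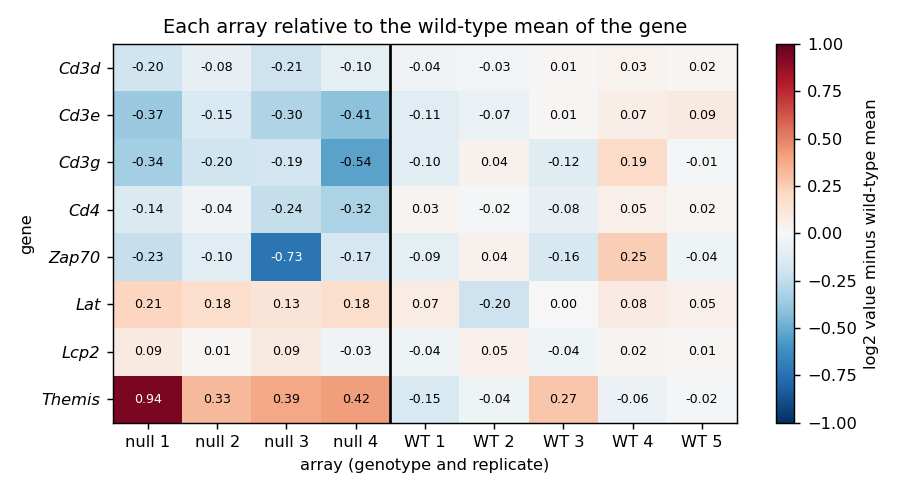
Log2 value of each measured gene (rows) in each array (columns, null arrays left of the line, wild-type arrays right of it) minus the wild-type mean of the gene, as colour and number. Receptor chains, Cd4 and Zap70 are below 0 in all 4 null arrays, Lat and Themis above 0 in all 4, with null array 3 (-0.73) extreme for Zap70 and null array 1 (0.94) for Themis.

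The 8 genes did not all have their lowest or their highest value in the same array, and their co-variation was not tested. Null array 4 had the lowest value for 3 of them (Cd3e, Cd3g and Cd4), null array 3 for 2 (Cd3d and Zap70), and wild-type array 4 the highest for 4 (Cd3d, Cd3g, Cd4 and Zap70). Without null array 4 the differences were -0.28 for Cd3e, -0.24 for Cd3g and -0.14 for Cd4. The SD was larger in null than in wild-type arrays for 7 of the 8 genes, Lat being the exception, and for 70.5% of the 2604 genes of similar or higher level.

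The wider pathway was read in 7 lists, which share some genes and hold 113 different measured genes besides the 8. Among the 7 is a list of relatives of the 8 genes used in other cells (11 measured, none passing). The 113 are therefore not all genes of the pathway. Of these, 11 passed over all genes, 2 higher and 9 lower in null cells, a share of 9.73% against 2.32% of all genes and 6.07% of the 2604 genes at least as bright as Themis. Without null array 1, wild-type array 2 or wild-type array 4 the count was 6, and without null array 3 or wild-type array 5 it was 7. By direction, 1.04% of those 2604 passed as higher and 5.03% as lower in null cells. The median difference of the 113 was -0.062, against -0.057 for the 2604. Unlike the 2604, the 113 were not filtered by level, and 5 of them had means below the median of all values. The 2604 are therefore not matched to them in level. The lists too were chosen with earlier results of these data known, so these shares are description and not a test.

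Partners of LAT and SLP-76 contained both of the rises. Of 24 measured genes, 2 rose, 1 fell and 21 did not pass (median -0.016). Grap2 encodes GADS, the adaptor that joins SLP-76 to LAT. It had values of 9.05, 8.57, 8.62 and 8.59 in null arrays, against 8.26, 7.83, 8.25, 8.07 and 8.05 in wild-type arrays. The groups lay well apart, with null array 1 highest, at a difference of 0.62 ± 0.12 (SE), a 1.54-fold rise (limma adjusted p = 0.0268). Txk, a TEC-family kinase that phosphorylates phospholipase C gamma 1 in T cells, had values of 8.70, 8.18, 8.46 and 8.08 in null arrays, against 7.87, 7.62, 7.96, 7.42 and 7.36 in wild-type arrays. Its difference of 0.71 ± 0.16 (SE) passed narrowly (limma adjusted p = 0.0497), and null array 4 exceeded wild-type array 3 by little. Without null array 1 neither passed (limma adjusted p = 0.0503 for Grap2 and 0.119 for Txk), and each call was also lost without null array 3 or any 1 of wild-type arrays 2, 4 and 5, that of Txk without null array 2 or wild-type array 1 as well. Adap1, which fell by 0.60 to a null mean of 4.21, near the median of all values (4.04), encodes an ARF GTPase-activating protein and not the SLP-76 partner ADAP (limma adjusted p = 0.0279); its call was lost without any 1 of null arrays 1, 3 and 4 or wild-type arrays 3, 4 and 5. The gene of that adaptor, Fyb, differed by -0.030, phospholipase C gamma 1 (Plcg1) by -0.016 and the exchange factor gene Vav1 by -0.042, and none of these 3 passed. These 3 were named after their values were seen.

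Inhibitors of proximal TCR signalling fell in 3 of 26 cases, rose in 0 and did not pass in 23 (median -0.051). Sla2, which encodes an adaptor that helps CBL remove TCR chains from the cell surface, had values of 7.17, 7.13, 7.14 and 7.26 in null arrays, against 7.56, 7.92, 7.68, 7.97 and 7.85 in wild-type arrays. Null arrays were tightly grouped below all wild-type arrays, a difference of -0.62 ± 0.089 (SE), or 0.649-fold (limma adjusted p = 0.00714). Lax1, a transmembrane adaptor that limits antigen receptor signalling, was 7.45 ± 0.17 (SD, n = 4) in null arrays and 7.92 ± 0.084 (SD, n = 5) in wild-type arrays (limma adjusted p = 0.0190), a call lost without wild-type array 2 or 4. Inpp5d, the gene of the lipid phosphatase SHIP1, fell by 0.28 (limma adjusted p = 0.0487), a call that was lost without any 1 of the 9 arrays. The diacylglycerol kinase gene Dgka, one of the genes whose pattern was most like that of Themis, differed by 0.24 without passing (limma adjusted p = 0.107).

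In the calcium, PKC and NF-kB arm 2 of 20 genes fell, 0 rose and 18 did not pass (median -0.13). Malt1, which encodes a paracaspase of NF-kB signalling, had values of 8.44, 8.38, 8.35 and 8.61 in null arrays, against 8.84, 9.38, 8.95, 9.21 and 9.06 in wild-type arrays. No array crossed between the groups, and the difference was -0.64 ± 0.11 (SE), 0.64-fold (limma adjusted p = 0.0151). Nfatc1, a calcium-regulated transcription factor gene, was 8.22 ± 0.067 (SD, n = 4) in null arrays and 8.68 ± 0.13 (SD, n = 5) in wild-type arrays (limma adjusted p = 0.0151).

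The list of CD2 and SLAM family co-receptors and their partners also holds receptors of other families, namely Icos, Cd28, Cd27, Cd226 and Cd96. Of its 13 measured genes 2 fell, 0 rose and 11 did not pass (median -0.12). Sh2d1a, which encodes SAP, the adaptor of SLAM receptors, had values of 6.92, 7.13, 7.11 and 7.05 in null arrays, against 7.75, 8.002, 7.77, 8.06 and 7.89 in wild-type arrays. The gap between the groups was wider than the spread within either, and the difference of -0.84 ± 0.082 (SE), 0.558-fold, had the smallest p among the 113 genes (limma adjusted p = 0.000941). Icos, a co-stimulatory receptor gene, was 8.93 ± 0.20 (SD, n = 4) in null arrays and 9.61 ± 0.17 (SD, n = 5) in wild-type arrays (limma adjusted p = 0.0131). Cd28, the main co-stimulatory receptor gene, differed by 0.11 and did not pass; it was named after its value was seen.

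Src-family kinases and their regulators had 1 fall and 0 rises among 11 genes (median -0.036). The fall was in Unc119, whose product binds lipid-modified signalling proteins and activates Src-family kinases in T cells, with values of 4.91, 4.95, 5.01 and 5.29 in null arrays, against 5.73, 5.89, 5.57, 5.46 and 5.43 in wild-type arrays (difference -0.58 ± 0.11 (SE), limma adjusted p = 0.0264). Null array 4 came closest to wild type, and the call was lost without any 1 of null arrays 1 to 3 or wild-type arrays 1 to 3. The Ras-MAPK arm had 0 of 13 passing (median 0.025), its 2 smallest p-values being those of the Ras GTPase-activating gene Rasa3 (difference 0.37, limma adjusted p = 0.142) and of Jun (0.28, limma adjusted p = 0.33).

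**Figure D3:**
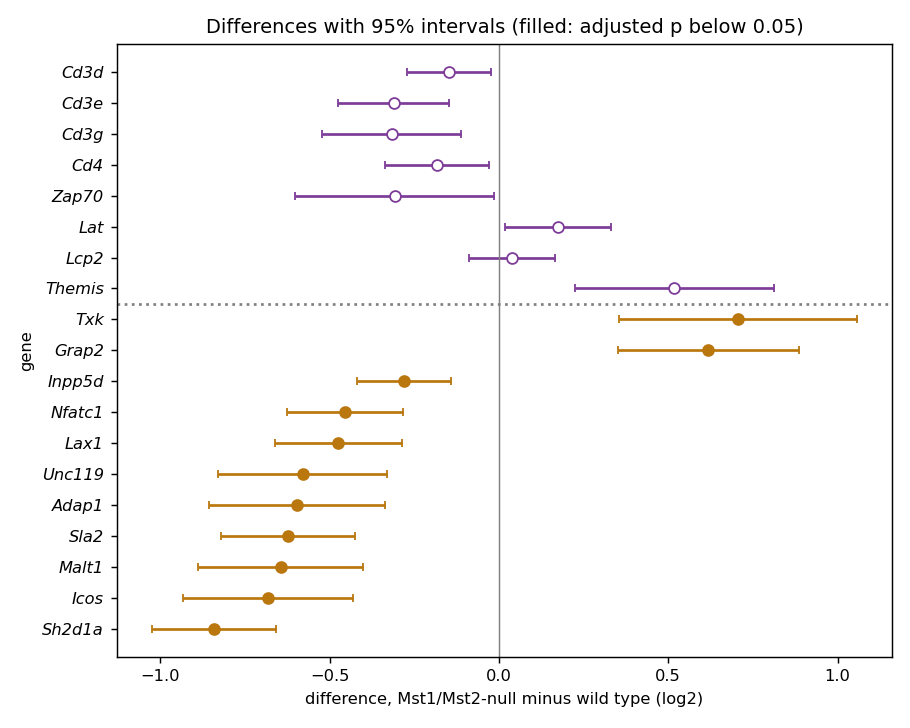
Difference of null minus wild type on the log2 scale (horizontal axis) with its 95% interval for the 8 measured genes (above the dotted line) and for the 11 wider pathway genes that passed (below it). Open circles mark genes that did not pass; the 8 intervals are all open, from Cd3g (-0.32) to Themis (0.52), and those that passed run from Sh2d1a (-0.84) to Txk (0.71).

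**Figure D4:**
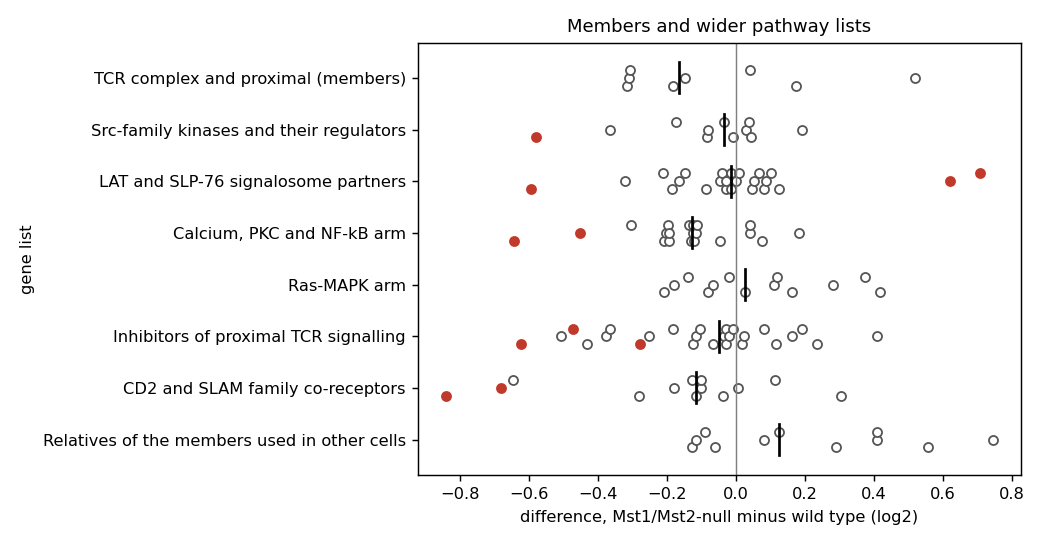
Difference of null minus wild type on the log2 scale (horizontal axis) for each measured gene of the 8 and of the 7 wider lists (rows), with a bar at each median and red points for genes that passed. The list of 24 LAT and SLP-76 partners is the only one with red points on the right of 0.

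Relatives of these genes that serve other cell types were also read, although their levels do not by themselves show which cells the samples held. The brightest of these relatives, Hcst, was 10.29 in null arrays and 10.35 in wild-type arrays on average. Of 11 measured, none passed (median 0.12): Cd8b1, the CD8 beta chain gene, was 7.03 ± 0.38 (SD, n = 4) in null arrays and 6.47 ± 0.19 (SD, n = 5) in wild-type arrays, without passing (limma adjusted p = 0.133), and Tyrobp, an adaptor gene of myeloid and NK cells, was 7.16 in null arrays and 6.42 in wild-type arrays on average (limma adjusted p = 0.184). Cd8a, the CD8 alpha chain gene, was lower than Cd8b1, at 4.58 in null arrays and 4.46 in wild-type arrays on average. It did not pass either (limma adjusted p = 0.758). Syk, the ZAP-70 relative of B and myeloid cells, was 3.91 in null arrays and 3.83 in wild-type arrays on average, below the median of all values. Hcst, Cd8a and Syk were not among the genes that the naming rule selected. The mean log2 level of 7 myeloid markers lay between 5.06 and 5.52 in null arrays and between 4.59 and 5.04 in wild-type arrays, highest in null array 4, and that of 6 B cell markers between 4.72 and 5.45 in null arrays and between 4.43 and 5.18 in wild-type arrays, again highest in null array 4. The mean of 4 CD8 T cell markers was 4.79 to 5.03 in null arrays and 4.58 to 4.97 in wild-type arrays, that of 6 NK cell markers 3.32 to 3.48 and 3.24 to 3.45, that of 3 gamma-delta T cell markers 4.02 to 4.40 and 4.02 to 4.23, and that of 5 thymocyte markers 3.90 to 4.21 and 3.85 to 4.10. None of the markers of these 6 cell types passed, and 5 of the 6 NK cell markers lay below the median of all values. Null array 4 was also the lowest for Cd3e, Cd3g and Cd4, and the part of other cells in the differences of these genes was not tested. The mean of 6 Treg cell markers was 8.93 to 9.25 in null arrays and 9.42 to 9.54 in wild-type arrays, with Lrrc32 and Ikzf2 lower (differences -1.06 and -0.72, limma adjusted p = 0.0266 and 0.0330), and their part was not tested either. Signs of stress (6 genes, Hspa1a among them) ranged from 6.43 to 8.79 in null arrays and from 6.10 to 8.56 in wild-type arrays, and with the level of Hspa1a and Hspa1b as a covariate the difference of Cd3e was -0.32 (limma adjusted p = 0.0446) and that of Themis 0.53 (limma adjusted p = 0.0815).

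Genes of most similar pattern were sought for the 3 genes with the smallest p, by the root mean square difference of scaled values over the 9 arrays among 10546 genes. Scaled values keep the difference between genotypes, so genes with a like difference come out near. How small a distance arises by chance was not tested. Nearest to Cd3e were Zranb1, a deubiquitinase gene (0.134), Sf3b3, a splicing factor gene (0.174), and Faf2, a gene of protein degradation at the endoplasmic reticulum (0.188). Nearest to Themis were Col20a1 (0.228), Klhl6 (0.234) and Dgka (0.308), and nearest to Cd3g were Barx1 (0.191), Myo7a (0.254) and Zfp930 (0.263). Of these 9, only Faf2 passed (difference -0.34, limma adjusted p = 0.0335).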

How the data were processed

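The deposited values are log2 expression values, 1 per probe set and array, which the authors obtained by RMA; the submitters' processing notes name Affymetrix Expression Console version 1.1, and a genome build was not given in the sources used here. Of 41345 probe sets, 23521 had 1 gene symbol in the platform annotation, and the brightest over 9 arrays stood for a gene, leaving 22180 genes. Null and wild-type arrays were compared with limma 3.58.1 in R 4.3.3 (lmFit and eBayes, two-sided, Benjamini-Hochberg over all genes, threshold 0.05, no filter on dim genes), tested on simulated data beforehand. Alternatives were a replicate block (in which wild-type array 5, alone with its number, adds nothing), leaving out dim genes, averaging or separating the probe sets of a gene, median centring, quantile normalisation, other variance and weight settings, a heat shock covariate and each array left out; leaving out null arrays 2 and 4 together was added after seeing the data. The members and lists were chosen with earlier results of these data known. Named genes are the members, list genes that passed (or the 2 smallest p) and the 3 nearest patterns of 3 members, with exceptions marked. Promoters came from RefSeq for 8 of the 9 genes. Promoter motifs and summaries used pandas 2.3.3 and numpy 2.4.6 under Python 3.11.15, and plots used matplotlib 3.10.9.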

Additional observations from a re-analysis of the deposited data

Results flagged for a closer look

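Of 38 groups screened (19 genes in both genotypes), 3 held 1 array far from the others; chance flags about 1 in 20 groups. Themis was 8.06 in null array 1, above the other null arrays by 0.849 of the group's range. Grap2 was 9.05 in the same array, above the other null arrays by 0.903 of the range. Lat was 10.73 in wild-type array 2, below the other wild-type arrays by 0.715 of the range.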

How the results depend on the processing

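No difference of the 8 measured genes or of the 11 wider pathway genes changed sign under any of the 19 alternatives. The number of the 8 genes that passed was 2 with dim genes removed (Cd3e and Themis), and 1 with arrays centred on their median, with eBayes using trend and robust, with array weights and with the heat shock covariate (Cd3e in each), and 1 after quantile normalisation (Themis); leaving out single arrays gave 0 to 1. Adjusted p (limma) of Cd3e ranged from 0.0288 to 0.26 over all alternatives and that of Themis from 0.0487 to 0.257. Same-numbered arrays correlated in their deviations from group means by -0.115 to 0.042, and different-numbered arrays by -0.218 to 0.159. No pairing by number was seen in this, but so few arrays cannot exclude a weak one. With the replicate block 178 of all genes (162 of them among the 515) and 2 of the wider pathway genes (Sh2d1a and Txk) passed, and none of the 8; without null arrays 2 and 4, a choice made after seeing the data, 735 of all genes and none of the 8 passed; without single arrays 271 to 594 of all genes and 6 to 11 of the wider pathway genes passed. The lowest count, 271, came without wild-type array 4, and leaving out null array 1 (280) or wild-type arrays 1 (327), 2 (282), 3 (322) or 5 (314) also lowered it by over 1.5 times; each such fit has fewer samples. After quantile normalisation 35.7% of all calls were higher in null cells, against 18.4% in the main comparison. Sh2d1a kept its call under all 19 alternatives, whereas Inpp5d lost it under 16, Txk under 9, Adap1 under 8, Unc119 under 7, Grap2 under 6, Lax1 under 3 and Sla2, Icos, Malt1 and Nfatc1 under 1 each, the replicate block; the cause was not tested. As RMA gives no detection call, low signal could not be told from background, which bears on the dim Adap1.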

Other observations

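Exact repeats of a value are common in the deposited table: in 12547 of 22180 genes (56.6%) at least 2 arrays had the same value, and in 1381 genes (6.2%) at least 5 did. Of the 8 measured genes of the receptor complex only Lcp2 had such a repeat, in null array 2 and wild-type array 5. Fyb was 10.03 in 3 null arrays and in all 5 wild-type arrays, with an SD of 0.0015 in wild type, and its null array 2 was at 9.92.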
